A study of Mus musculus with 8 samples.

Results

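Gsta4, Gstm1, Gpx2, Nqo1, Gclc, Gclm, Txnrd1, Srxn1, Slc7a11 and Gsr, 10 genes of glutathione metabolism and of the antioxidant response driven by the transcription factor NRF2, were followed in tumors grown in the liver and in the pancreas of mice. They were picked by symbol from 52459 genes in the bulk table and 31053 genes in the single-cell tables, and all 10 were found in both. The choice was made with the liver against primary contrast and the epithelial against macrophage contrast already known. Values and calls of the 10 genes in those contrasts are therefore a description and no test of them. The tumors came from FC1242, a mouse pancreatic cancer line of the KPC model, of which 100000 cells were injected into C57BL/6 mice. Liver tumors, called liver metastatic in the labels, were compared with primary tumors of the pancreas. Both were taken after 3 weeks and, for bulk RNA-seq, each site gave 3 libraries of tumor tissue. Each site also gave 1 droplet single-cell library of cells sorted for CD45, the pan-leukocyte surface protein encoded by Ptprc. Every tumor derives from the same single line, the route by which cells reached the liver is not given in the sources used here, and the labels do not say how many mice were pooled for a single-cell library or how bulk libraries relate to mice, so the p-values below measure only the spread between these libraries.

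Glutathione is the main thiol of the cell. Glutamate-cysteine ligase, made of the catalytic subunit Gclc and the modifier subunit Gclm, carries out the rate-limiting step of its synthesis, with cysteine that can enter the cell as cystine through Slc7a11, the light chain of the system xc- exchanger. Glutathione peroxidases such as Gpx2 use glutathione to reduce peroxides, glutathione reductase (Gsr) returns the oxidized form to glutathione, and glutathione S-transferases such as Gsta4 and Gstm1 join it to electrophiles. Under oxidative or electrophilic stress NRF2 (Nfe2l2) escapes its inhibitor Keap1 and binds antioxidant response elements in the control regions of such genes. In the normal liver, hepatocytes carry abundant glutathione enzymes of their own.

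In the GENCODE annotation of mouse GRCm38 the 10 genes are protein-coding and lie on 6 chromosomes. Gclc (chr9:77754535-77794485) and Gsta4 (chr9:78182774-78209349) are on chromosome 9, Gstm1 (chr3:108012255-108017973), Gclm (chr3:122245557-122270732) and Slc7a11 (chr3:49892526-50443614) are on chromosome 3, and Nqo1 (chr8:107388225-107403206) and Gsr (chr8:33652523-33698163) are on chromosome 8. Gpx2 (chr12:76792333-76795554) lies on the minus strand inside an intron of Fntb, Txnrd1 is at chr10:82833951-82897712 and Srxn1 at chr2:152105516-152111376. Of the 50-base stretches of the Gstm1 transcripts, 18.88% also occur in transcripts of other genes, chiefly Gstm2-ps1, Gstm3 and Gm8834, so its reads could be split between copies. The share was 6.03% for Gpx2 (chiefly Gpx2-ps1) and 4.58% for Gclm, whose exons also overlap Gm17494 on the other strand, and the strand setting of the counting is not given in the sources used here.

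RefSeq promoters of GRCm38.p6 (250 bases before to 50 after a transcript start) were matched by symbol for 7 of the 10 genes, Gsta4, Gclc and Gsr being the ones without an entry. The core of the antioxidant response element, searched as TGACNNNGC on both strands, was present in promoters of 3 of these 7 genes, Gclm, Txnrd1 and Srxn1, against 3781 of 27025 genes (13.99%) in the whole table. In Gclm it lies at -134 to -126, in 1 of the 3 Txnrd1 promoters at -92 to -84, and in Srxn1 at +29 to +37, inside the transcribed part, all as the reverse complement. The 250 bases before the start are shown 5' to 3' on the gene's strand for Gclm (chr3:122245307-122245556) and Txnrd1 (chr10:82858956-82859205), with the core in capitals, and for Gpx2 (chr12:76795555-76795804) and Nqo1 (chr8:107403206-107403455), the members with the largest and the least even bulk differences described below, in which these letters do not occur.
Gclm: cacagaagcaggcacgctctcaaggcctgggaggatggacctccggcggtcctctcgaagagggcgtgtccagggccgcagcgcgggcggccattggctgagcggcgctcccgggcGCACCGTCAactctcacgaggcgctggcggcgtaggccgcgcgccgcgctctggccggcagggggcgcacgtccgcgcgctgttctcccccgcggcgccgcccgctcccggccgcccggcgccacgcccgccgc
Txnrd1: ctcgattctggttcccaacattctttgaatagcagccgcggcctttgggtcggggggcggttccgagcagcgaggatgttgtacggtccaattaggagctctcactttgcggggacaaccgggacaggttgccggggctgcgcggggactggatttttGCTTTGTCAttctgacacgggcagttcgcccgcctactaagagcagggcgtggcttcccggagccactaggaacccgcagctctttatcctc
Gpx2: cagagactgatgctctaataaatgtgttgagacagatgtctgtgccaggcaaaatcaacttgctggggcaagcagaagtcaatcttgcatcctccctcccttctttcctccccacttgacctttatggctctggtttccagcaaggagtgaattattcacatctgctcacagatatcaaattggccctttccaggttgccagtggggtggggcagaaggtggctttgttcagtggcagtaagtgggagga
Nqo1: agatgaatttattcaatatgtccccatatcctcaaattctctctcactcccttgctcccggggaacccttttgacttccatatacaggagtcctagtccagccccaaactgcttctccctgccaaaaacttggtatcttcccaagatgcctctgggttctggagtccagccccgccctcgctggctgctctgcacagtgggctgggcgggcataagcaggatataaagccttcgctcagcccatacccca

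The bulk libraries held 27481390 to 36743247 reads, and 16487 genes passed the filter on low counts. Values are counts scaled to equal library totals (CPM), on totals scaled by trimmed mean of M-values (TMM). In the edgeR quasi-likelihood test with Benjamini-Hochberg adjustment at 0.05, 2755 genes were higher and 1032 lower in liver tumors. Over all genes the median log2 change was -0.07. The summed CPM of 15 hepatocyte genes was 70430 to 132245 in liver tumors, lowest in liver replicate 3, against 82.8 to 581 in primary tumors. A list of 13 macrophage genes summed to 7781 to 16218 CPM in liver tumors, against 889.7 to 1997 in primary tumors. Most of this sum in liver tumors was Apoe, which hepatocytes also make, and without it, a choice made after seeing the data, the other 12 genes summed to 1227 to 1398 CPM in liver tumors, against 651.5 to 1015 CPM in primary tumors, with 9 called higher and 1, Cd14, lower. For 16 epithelial genes, the sum was 3224 to 3731 CPM in liver tumors, against 4816 and 5859 in primary replicates 1 and 3 and 12568 in primary replicate 2, which stood 2.36-fold above the mean of the other two. No marker of these 3 lists was at 0 in either group, although Epcam, a defining epithelial surface marker, was low in every library, at 1.95 to 5.46 CPM in liver tumors and 0.38 to 1.52 CPM in primary tumors. In bulk tissue, fewer cells of a type and less RNA per cell cannot be told apart.

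Of the 10 genes, 1 was called in bulk (10%), Gpx2, which was lower in liver tumors, against 23.0% of all genes called in either direction and 6.26% called lower. None was called higher by edgeR, with 2 at an unadjusted p under 0.05 and 1 by DESeq2, against 16.7% of all genes called higher. All liver libraries lay above all primary libraries for 1 gene, Txnrd1 (23.8% of all genes), and below them for 2, Gpx2 and Gsta4 (20.2%), while 7 overlapped. These contrasts were used to choose the genes, so nothing is read from the counts. Among primary tumors, 9 of the 10 genes had their highest level in replicate 2, from 1.25 to 11.8 times the mean of replicates 1 and 3, while 44.8% of all tested genes did. The exception, Gpx2, was at 0.44 times that mean. Among liver tumors, 7 of the 10 genes were lowest in replicate 3. The share of all tested genes lowest there was not counted, so nothing is read from this number.

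**Figure D1:**
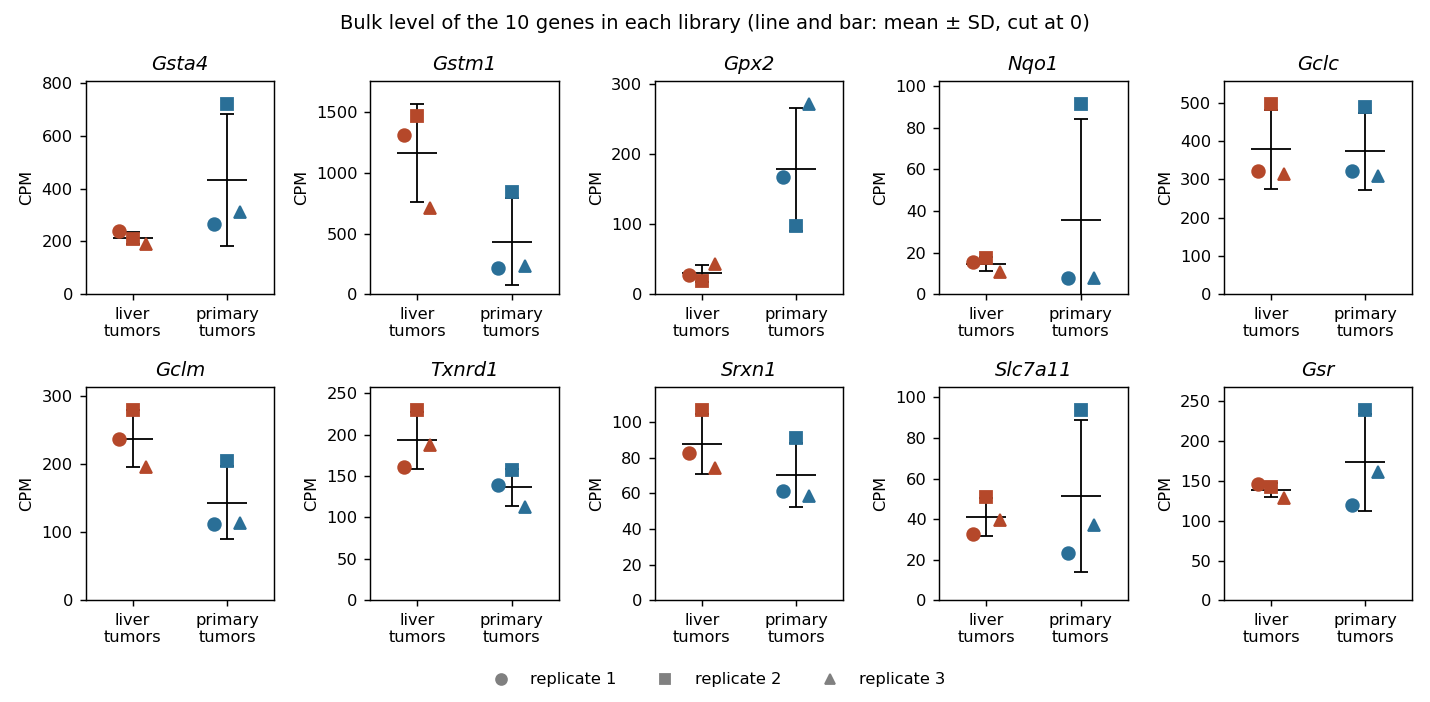
CPM (TMM-scaled totals, vertical axes) of the 10 genes in each bulk library, 3 liver tumors left and 3 primary tumors right, with marker shape giving the replicate number and black lines the mean and SD. Gpx2 is lower in all 3 liver tumors (18.8 to 43.0 CPM) than in any primary tumor (96.9 to 272 CPM), and for Nqo1 primary replicate 2 (91.4 CPM) stands far above every other library.

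The glutathione-consuming enzymes differed most from each other. Gpx2, the gastrointestinal glutathione peroxidase, was at 27.1, 18.8 and 43.0 CPM in liver replicates 1 to 3, against 167, 96.9 and 272 CPM in primary replicates 1 to 3. The groups did not overlap, and the log2 change was -2.59 (SE 0.44). It kept its sign and its call under all 15 alternatives, from -2.99 to -1.55. These alternatives refit the same libraries in the contrast used to choose the genes, so they describe the processing only. Gsta4, a transferase for the lipid peroxidation product 4-hydroxynonenal, was at 238, 210.2 and 189.6 CPM in liver tumors, against 267, 721 and 311 CPM in primary tumors. Its liver values were close together and all below the primary ones, of which replicate 2 was by far the highest, and the log2 change was -1.03 (SE 0.38), or -0.44 without that library. Gstm1, a mu-class transferase that hepatocytes make in quantity, had 1316, 1473 and 710.0 CPM in liver tumors, against 219, 847 and 232 CPM in primary tumors. Primary replicate 2 lay above liver replicate 3, so the groups overlapped, and the log2 change was 1.43 (SE 0.57), or 2.37 without primary replicate 2.

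The genes of glutathione supply were more even. Gclc had 323, 497 and 315 CPM in liver tumors, against 321, 489 and 308 CPM in primary tumors, with a log2 change of 0.02 (SE 0.29). In both groups replicate 2 was the highest, and the ranges all but coincided. Gclm had 236, 279 and 195 CPM in liver tumors, against 112, 205 and 113 CPM in primary tumors, with a log2 change of 0.73 (SE 0.29). The overlap rested on primary replicate 2, which reached above liver replicate 3. Slc7a11 had 32.5, 51.0 and 39.5 CPM in liver tumors, against 23.4, 93.7 and 37.1 CPM in primary tumors, and its log2 change of -0.32 (SE 0.47) was 0.44 without primary replicate 2. Gsr had 146, 142 and 129 CPM in liver tumors, against 119, 239 and 162 CPM in primary tumors, and the narrow liver range lay inside the primary one, with a log2 change of -0.32 (SE 0.27).

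The quinone and thioredoxin members showed the most uneven and the most even of the differences. Nqo1, the NAD(P)H quinone dehydrogenase often taken as a readout of NRF2 activity, had 15.5, 17.2 and 10.6 CPM in liver tumors, against 7.65, 91.4 and 7.81 CPM in primary tumors. A single library, primary replicate 2, put the primary mean above the liver mean, and the log2 change of -1.30 (SE 0.90) became 0.90 without it. Txnrd1, the cytosolic thioredoxin reductase, had 161, 229.7 and 188 CPM in liver tumors, against 139, 157 and 113 CPM in primary tumors, with a log2 change of 0.50 (SE 0.22), the lowest liver value lying just above the highest primary one. Srxn1, sulfiredoxin, which repairs overoxidized peroxiredoxins, had 82.7, 107 and 74.0 CPM in liver tumors, against 61.1, 91.0 and 58.4 CPM in primary tumors, with overlapping groups and a log2 change of 0.32 (SE 0.24). Per transcript length, in the length-scaled FPKM values deposited by the authors, Gstm1 was the most abundant of the 10 in liver tumors, at 798 ± 288 FPKM, followed by Gsta4 at 169 ± 20.3 and Gclc at 101 ± 29.6 (SD, n = 3 each). In primary tumors the order began with Gsta4 at 340 ± 199.6, Gstm1 at 292 ± 245 and Gclc at 98.2 ± 27.5 FPKM (SD, n = 3 each), and Gsta4 and Gstm1 differed there by far less than their spread. Slc7a11 was the least abundant member in both, at 2.96 ± 0.73 FPKM in liver tumors and 3.67 ± 2.70 FPKM in primary tumors.

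The reads of each gene were also set against the summed reads of 8 epithelial genes (Epcam, Krt7, Krt19, Cldn4, Cldn7, Ehf, Muc1 and Msln), a scaling that moved the median of all genes by 1.15 on the log2 scale, so that 6449 genes were called higher and 31 lower in liver tumors. Gsta4 then had the log2 change closest to 0 of the 10 genes (0.40, against -1.03 on TMM totals). The median of all genes on this scale was 1.08, so 0 is not its centre. Gsta4 had 306, 268 and 245 reads per 1000 epithelial reads in liver tumors, against 224, 205 and 192 in primary tumors, and primary replicate 2 no longer stood out. Gpx2 had 34.8, 23.9 and 55.5 reads per 1000 epithelial reads in liver tumors, against 140.0, 27.5 and 168 in primary tumors, so that primary replicate 2 fell within the liver range. Nqo1 in primary replicate 2, at 25.9 per 1000, was just above the 13.7 to 21.99 of liver tumors, while primary replicates 1 and 3 were at 6.42 and 4.82, and its log2 change was 0.58. With Gsta4, 8 of the 10 genes lay above all primary libraries in all 3 liver libraries on this scale, the exceptions being Gpx2 and Nqo1, against 67.8% of all tested genes, and nothing is read from that count. The log2 changes of Gsr (0.9975), Slc7a11 (1.19) and Gclc (1.28) were close to the shift of the median, and those of Srxn1 (1.58), Txnrd1 (1.69), Gclm (2.04) and Gstm1 (2.98) were above it. Those of Gsta4 (0.40), Nqo1 (0.58) and Gpx2 (-1.55) were below it. Under totals without the hepatocyte list the median of all genes moved the other way, by -0.31, and 2277 genes were called higher and 3167 lower. The part of epithelial, hepatocyte and macrophage RNA in each difference was not tested.

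**Figure D2:**
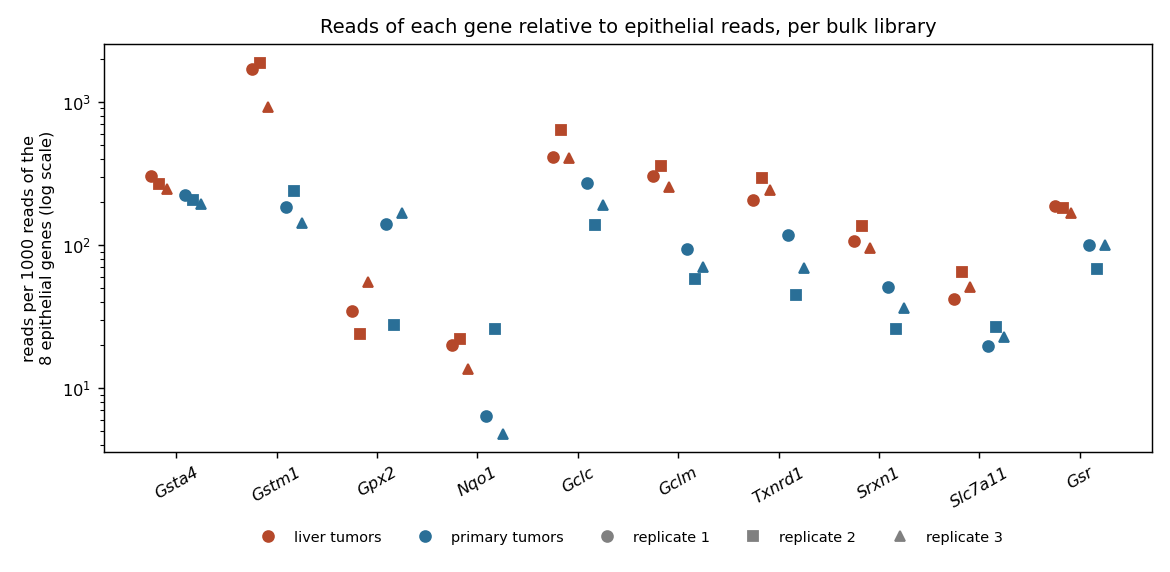
Reads of each gene per 1000 reads of 8 epithelial genes (vertical axis, log scale) in each bulk library, liver tumors left of primary tumors for each gene, marker shape giving the replicate. The 6 Gsta4 values lie between 192 and 306, whereas the Gstm1 values of liver tumors (917 to 1879) lie above those of primary tumors (144 to 240.2).

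Across 102 other genes of the pathway, in lists chosen by function, 32 were higher and 5 lower in liver tumors (edgeR, adjusted p under 0.05 over all 16487 genes), with a median log2 change of 0.37, against 16.7% and 6.26% of all genes and a median of -0.07. The changes were unevenly spread. Of 23 other glutathione enzymes, 11 were higher and none was lower (none at an unadjusted p under 0.05, none by DESeq2), with a median of 1.08. Of 23 other glutathione S-transferases, 10 were higher and 1, Mgst2, was lower, with a median of 1.48. Of 15 thioredoxin and peroxiredoxin genes, 5 were higher and none lower (1 at an unadjusted p under 0.05, 1 by DESeq2), with a median of 0.51. Of 32 other NRF2 targets, 5 were higher and 3 lower with a median of 0.07, and of 11 pathway regulators 1 was higher and 1 lower with a median of -0.14. In 78.4% of the 102 genes primary replicate 2 was the highest of the primary tumors.

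**Figure D3:**
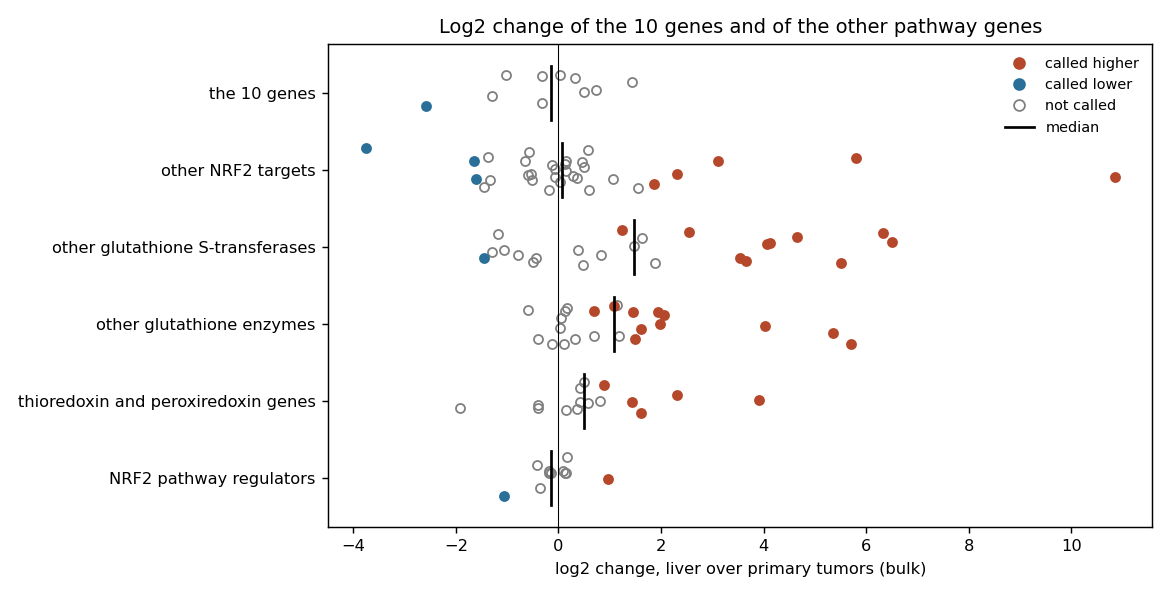
Log2 change between liver and primary tumors (horizontal axis) of the 10 genes and of 5 lists of other pathway genes (rows), each point a gene, filled where called by edgeR at an adjusted p under 0.05, with a black line at the median. The transferase and glutathione enzyme lists have medians of 1.48 and 1.08, while the 10 genes (-0.15), the other NRF2 targets (0.07) and the regulators (-0.14) lie near 0.

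The glutathione enzymes that rose in liver tumors included those of cysteine synthesis. Cth, cystathionine gamma-lyase, had 172, 198 and 144 CPM in liver tumors, against 3.54, 1.63 and 4.63 CPM in primary tumors (log2 change 5.70, SE 0.41, edgeR adjusted p 3.24e-05). Cbs, the enzyme one step before it, had 387, 396 and 243 CPM in liver tumors, against 10.6, 1.90 and 12.6 CPM in primary tumors (log2 change 5.35, edgeR adjusted p 0.000918). Both are known liver enzymes, and in the few hepatocyte-like cells of the liver single-cell library they stood at 451 and 526 CPM, against 4.87 and 2.03 CPM in epithelial cells of that library. Anpep, a cell-surface aminopeptidase, rose by 4.03 and Gpx1, the ubiquitous cytosolic peroxidase, by 1.49 on the log2 scale (edgeR adjusted p 7.99e-05 and 0.0103). Gss, glutathione synthetase, had a log2 change of 0.12, Gpx4 of 0.11 and Gpx3 of -0.59, none of them called.

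Among the transferases, Gstz1, of tyrosine breakdown, had 704, 660.0 and 407 CPM in liver tumors, against 36.9, 33.7 and 30.9 CPM in primary tumors (log2 change 4.12, SE 0.29, edgeR adjusted p 2.89e-05). Gstk1 of peroxisomes and mitochondria, Gstt2, and the membrane-bound Mgst1 rose by 6.32, 4.65 and 3.53 on the log2 scale, and Gstp1, a pi-class enzyme that mouse hepatocytes also express, by 2.55 (edgeR adjusted p 0.00971). Gsto1, an omega-class transferase, had a log2 change of -1.29 that edgeR did not call (adjusted p 0.0725) and DESeq2 did (adjusted p 0.0222), with 447, 430.2 and 369.8 CPM in liver tumors, against 590.0, 1818 and 634 CPM in primary tumors. Of the antioxidant enzymes, catalase (Cat) had 2026, 2211 and 1162 CPM in liver tumors, against 118, 145 and 94.8 CPM in primary tumors (log2 change 3.91, edgeR adjusted p 0.000133), and the mitochondrial Txnrd2 and Sod2 rose by 2.31 and 1.62. Each of these liver series was lowest in replicate 3, and how often this held over all genes was not counted.

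The NRF2 targets outside the 10 included 5 that rose (Ephx1, Abcc2, Osgin1, Aldh1a1 and Ugt1a6a) and 3 that fell (Akr1b8, Akr1b7 and Aldh3a1). Abcc2, a canalicular export pump of hepatocytes, had 319, 537 and 270.5 CPM in liver tumors, against 0.05, 0.45 and 0.15 CPM in primary tumors (log2 change 10.85, edgeR adjusted p 1.95e-05), and Aldh1a1 rose by 5.80 (edgeR adjusted p 0.00258). Aldh3a1, an aldehyde dehydrogenase, fell to 28.6, 30.5 and 36.2 CPM in liver tumors, against 86.5, 116.8 and 89.0 CPM in primary tumors (log2 change -1.62, SE 0.20, edgeR adjusted p 0.000727). Under the epithelial scaling its log2 change was -0.39 and was not called. Hmox1, heme oxygenase, had 64.4, 73.7 and 56.8 CPM in liver tumors, against 41.5, 131 and 40.4 CPM in primary tumors, with primary replicate 2 above and the other two below every liver library, and its log2 change of -0.13 was 0.67 without that library. The abundant Fth1 and Prdx1 were not called, at log2 changes of 0.02 and 0.51. Among regulators, Nfe2l2 itself had 199, 206 and 224 CPM in liver tumors, against 224, 245 and 225 CPM in primary tumors (log2 change -0.14, SE 0.18, edgeR adjusted p 0.61), and Keap1 had a log2 change of 0.17. Sqstm1 (0.13) and Nfe2l1 (-0.19) were not called either. Bach1, a repressor of antioxidant response elements, rose by 0.97 (edgeR adjusted p 0.0456), a call that was lost without any 1 of the libraries except primary replicate 2 (adjusted p 0.0559 to 0.193). Maff, a small partner protein of NRF2, fell by 1.06 (edgeR adjusted p 0.0104). Without liver replicate 2 its log2 change was -0.94 and not called (adjusted p 0.0638), and it stood at 0.15 under the epithelial scaling.

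In the single-cell libraries 7575 liver and 2272 primary cells were kept, with medians of 6750 and 12032 UMIs (unique molecular identifiers), and the libraries shared 7 cell barcodes. Although cells had been sorted for CD45, 3506 of the liver cells (46.3%) and 321 of the primary cells (14.1%) fell into epithelial-like clusters, against 2926 (38.6%) and 1486 (65.4%) in monocyte- or macrophage-like clusters. The clusters were built without the 10 genes or the other pathway genes. In the epithelial-like cells Krt8 stood at 3719 CPM in the liver library and 3199 CPM in the primary library, and Ptprc at 16.2 and 8.50 CPM, against 278 and 495 CPM in macrophage-like cells. Epithelial clusters 1 and 3 held 933 and 781 liver cells and 5 and 3 primary cells, clusters 6, 7, 9 and 11 held cells of both, and macrophage cluster 0 was mostly liver while cluster 4 was mostly primary. With 1 library per site there is no test between sites or cell classes, and the intervals below are exact Poisson intervals of counting error only. Barcodes with at most 100 UMIs, taken as free RNA, held Gsta4 at 425 CPM in the liver library and 68.0 CPM in the primary library, and Krt8 at 1698 and 312 CPM.

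Epithelial-like cells held more of 8 of the 10 genes than macrophage-like cells in each library, where 51.0% of 13690 genes in the liver library and 50.2% of 12443 genes in the primary library did. A ratio above 2 was reached by 5 members in the liver library and 7 in the primary library, against 23.2% and 22.5% of genes. The shares of all genes cover only those with at least 20 UMIs in both classes together. Nqo1 in the primary library, with 4 and 3 UMIs, is below that limit but is counted among the members. The contrast was part of the choice of genes, so nothing is read from these counts. Gsta4 and Gpx2 had the largest ratios of the 10 genes in both libraries. Gsta4 was at 1467 CPM in epithelial cells against 64.9 CPM in macrophages of the liver library, a ratio of 22.6 (95% interval 21.7 to 23.6), and at 422 against 6.85 CPM in the primary library, a ratio of 61.5 (52.1 to 73.1). Gpx2 was at 134 against 5.33 CPM in the liver library and 46.3 against 1.26 CPM in the primary library, ratios of 25.1 and 36.7. After thinning each cell to 1000 UMIs, Gsta4 was seen in 63.3% of epithelial cells and 6.87% of macrophages in the liver library (87.1% and 50.2% unthinned), and in 20.2% and 0.47% in the primary library (55.5% and 7.94% unthinned). T cells gave 14.9% for Gsta4 in the liver library and 1.55% in the primary library after thinning, at median depths of 5742 and 10722 UMIs. Whether free RNA accounts for the macrophage shares was not tested.

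For 4 genes, Gsta4, Gpx2, Nqo1 and Gclc, the macrophage level was below that of the low-UMI barcodes in both libraries. Gclc was at 177 CPM in epithelial cells and 39.7 CPM in macrophages of the liver library, against 99.9 CPM in low-UMI barcodes, and at 218, 25.5 and 28.7 CPM in the primary library. Nqo1 was scarce everywhere, with 247 UMIs (8.79 CPM) in epithelial cells and 37 (1.03 CPM) in macrophages of the liver library, and 4 and 3 UMIs in the primary library. Gstm1 was at 187 CPM in epithelial cells, 60.7 CPM in macrophages and 89.9 CPM in low-UMI barcodes of the liver library, and at 126, 27.5 and 26.2 CPM in the primary library. In the liver library the ratio of Gsta4 to Gpx2 UMIs was 10.98 in epithelial cells, 12.2 in macrophages and 11.6 in neutrophils. It was 11.6 in low-UMI barcodes and 18.7 in T cells, which held 15 Gpx2 UMIs. In the primary library the ratio was lower in macrophages, at 5.43 (28 Gpx2 UMIs), than in epithelial cells, at 9.11 (196 Gpx2 UMIs). Low-UMI barcodes of that library held 187 Gsta4 and 17 Gpx2 UMIs, a ratio above both.

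The other 5 genes exceeded the low-UMI barcodes in macrophages of both libraries. Gclm was at 156 CPM in epithelial cells and 83.2 CPM in macrophages of the liver library (ratio 1.87), and at 125 and 33.8 CPM in the primary library (ratio 3.69). Gsr was at 360.4 and 194 CPM in the liver library and 333 and 129 CPM in the primary library, and Txnrd1 at 126 and 97.9 CPM and at 124 and 63.4 CPM. For Srxn1 and Slc7a11 the order was the other way in these clusters, but in the liver library it depended on how the cells were chosen. Srxn1 was lower in epithelial cells, at 10.1 CPM, than in macrophages, at 24.3 CPM, of the liver library (ratio 0.42, 0.36 to 0.48), while in the primary library 10.4 and 13.1 CPM gave a ratio of 0.80 whose interval, 0.57 to 1.09, holds 1. Slc7a11 was at 26.4 CPM in epithelial cells and 33.7 CPM in macrophages of the liver library (ratio 0.78, 0.71 to 0.86), and at 9.21 and 49.5 CPM in the primary library (ratio 0.19, 0.13 to 0.26). Low-UMI barcodes held it at 21.98 CPM in the liver library, near the epithelial level. In the primary library they held 19.6 CPM, above the epithelial level. In the liver library the log2 ratio turned to 0.34 for Srxn1 with the marker gate, which left 43 macrophages, and for Slc7a11 to 0.50 at a minimum of 3000 UMIs and 0.15 at a mitochondrial limit of 20%.

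**Figure D4:**
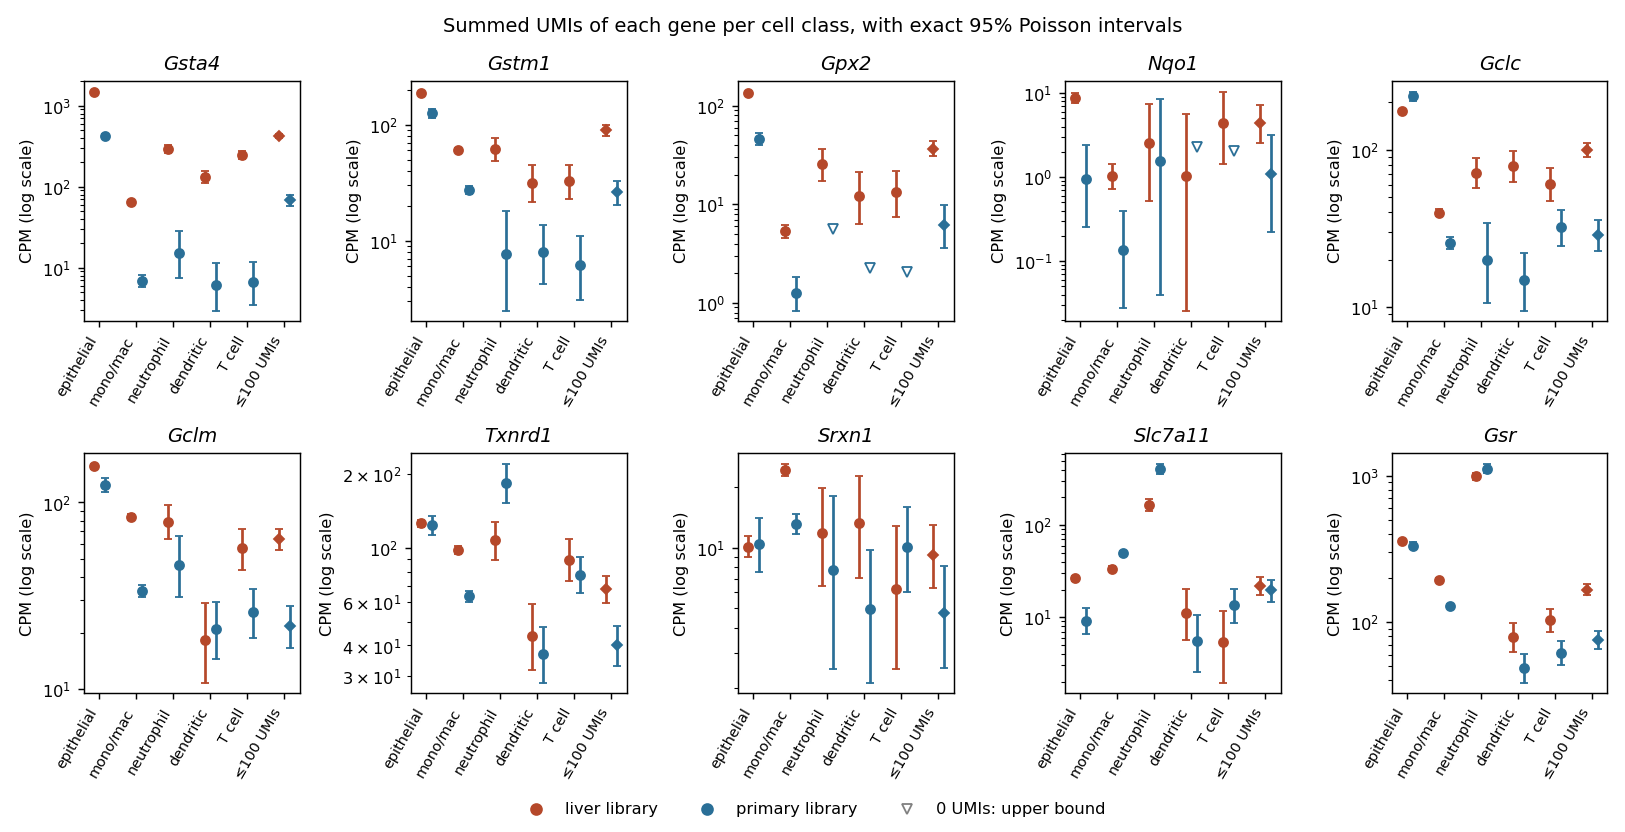
CPM of summed UMIs (vertical axes, log scale) of the 10 genes in 5 cell classes and in barcodes of at most 100 UMIs, liver library left of primary library, with exact 95% Poisson intervals and open triangles for the upper bound where no UMI was seen. Gsta4 and Gpx2 are highest in epithelial cells of both libraries, whereas Slc7a11 and Gsr are highest in neutrophils.

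Neutrophils, which were no part of the choice of genes, held the highest level of Gsr and Slc7a11 of the 5 classes with at least 50 cells in both libraries. Gsr reached 989 CPM (934 to 1048) in 514 neutrophil-like cells of the liver library and 1119 CPM (1039 to 1204) in 221 cells of the primary library, against 360.4 and 333 CPM in epithelial cells, and the low-UMI barcodes held 167 and 75.3 CPM. Slc7a11 reached 167 CPM (144 to 192) in neutrophils of the liver library and 409 CPM (362 to 462) in those of the primary library. Txnrd1 was also high there in the primary library, at 183 CPM, above the 124 CPM of epithelial cells. Gsta4 in neutrophils, at 294 and 15.4 CPM, was below the low-UMI barcodes of each library.

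Epithelial clusters differed among themselves. In the liver library cluster 3, led by the intestinal and gastric genes Lgals2, Phgr1 and Gkn1, had the highest Gsta4 (2761 CPM), Gstm1 (359 CPM), Gpx2 (279 CPM) and Nqo1 (27.3 CPM). Cluster 7, led by Tnnt2, Nes and Igfbp7, was the lowest of the 6 for every member but Gsr, with Gsta4 at 654 CPM, Gpx2 at 24.96 CPM and Gclc at 24.2 CPM, and it was the lowest for Gsta4 and Gclc in the primary library too, at 159 and 15.1 CPM. Cluster 9, led by mitotic genes such as Ube2c and Cdk1, held the highest Gclm and Txnrd1 in both libraries, at 212 and 195 CPM in the liver library and 206 and 214 CPM in the primary library. Gsr ranged from 337 to 462 CPM over 6 epithelial clusters of the liver library. Among macrophages, cluster 12, whose leading genes include Mmp12 and Nos2, had the highest Slc7a11, at 164 CPM in the liver library and 116 CPM in the primary library, where the lowest macrophage cluster held 15.1 and 9.52 CPM, and the highest Srxn1, at 66.8 and 25.1 CPM. In cluster 12 of the liver library, Gclc (80.2 CPM), Gclm (154 CPM) and Txnrd1 (178 CPM) were likewise the highest of 7 macrophage clusters.

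Over 19 clusters of at least 50 cells, which share 2 libraries and differ in depth, 8 of the 10 genes formed a correlated block in log2(CPM + 1), with Pearson's r from 0.44 to 0.96, highest for Gsta4 and Gpx2. Srxn1 and Slc7a11 stood outside it, with r of -0.31 and -0.36 against Gsta4 and 0.45 with each other. The 8 are the genes that were higher in epithelial-like than in macrophage-like cells, the classes of most of these clusters. The correlations therefore repeat in part the contrast used to choose the genes, and nothing is read from them. The genes most like the mean of the 10 over these clusters were Papss2 (r 0.94), Cdk18 (0.92), Igf2bp2 (0.92), Dusp18 (0.90) and Eif5 (0.90).

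**Figure D5:**
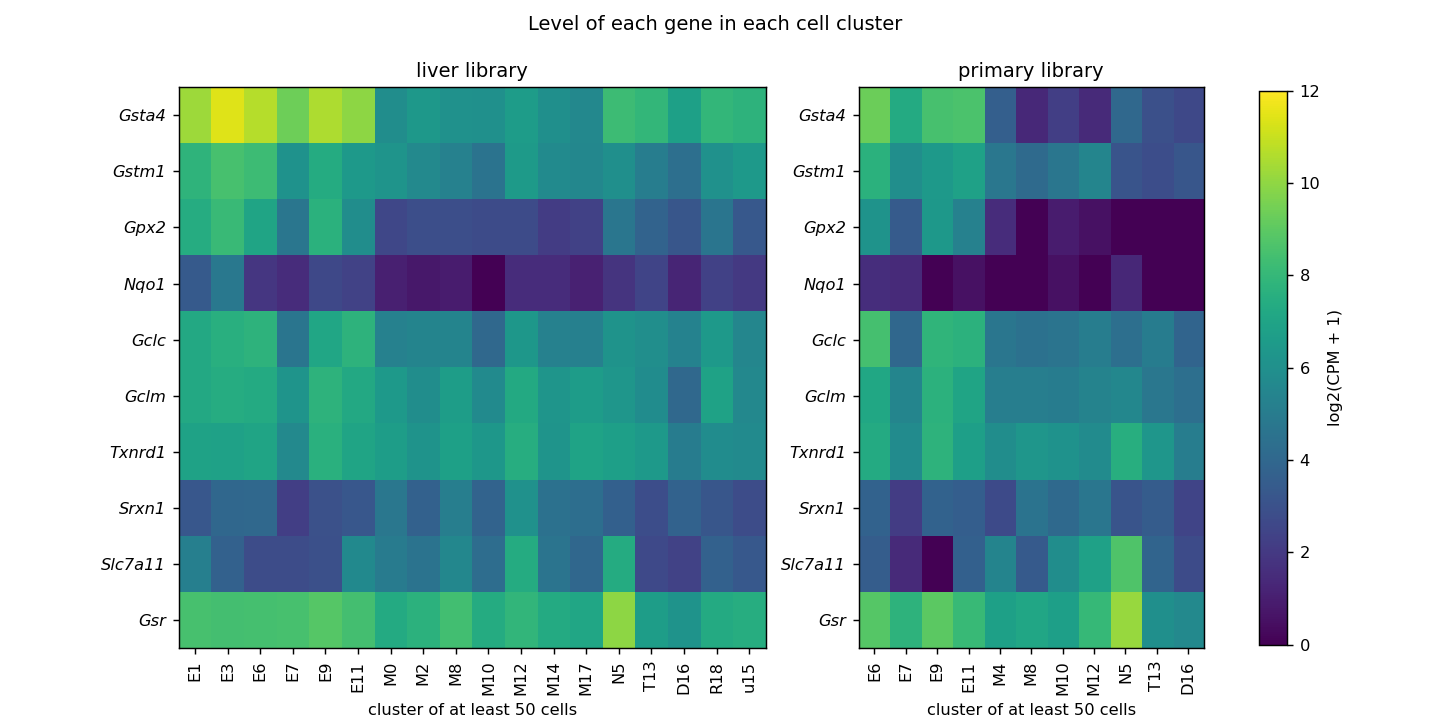
Level of the 10 genes (rows) in each cell cluster of at least 50 cells (columns), as log2(CPM + 1) in color, liver library left and primary library right; letters give the class (E epithelial, M monocyte or macrophage, N neutrophil, T T cell, D dendritic, R erythroid, u unnamed) and numbers the cluster. Gsta4 is brightest in epithelial cluster 3 of the liver library (2761 CPM), Gsr in neutrophil cluster 5 of both libraries (989 and 1119 CPM).

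Between sites, Gsta4 and Gpx2 were higher in epithelial-like cells of the liver library, the opposite of their bulk log2 changes on TMM totals. Gsta4 was at 1467 CPM in liver epithelial cells, against 422 CPM in primary ones, a ratio of 3.48 (3.32 to 3.65), and at 2.78 when only clusters 6, 7, 9 and 11 were used. Summed UMIs weight deep cells most. Cluster 11, with a median of 27475 UMIs per cell, gave 846 of the 1785 primary Gsta4 UMIs from 61 of 321 cells. The Gsta4 ratio was 2.55 in cluster 11, and 2.63, 4.11 and 4.05 in clusters 6, 7 and 9. Gpx2 was at 134 CPM in liver and 46.3 CPM in primary epithelial cells (ratio 2.89, or 1.93 in the shared clusters), whereas in bulk its liver values were below all primary ones. Slc7a11 was at 26.4 and 9.21 CPM (ratio 2.87), with 50.6 and 12.02 CPM in cluster 11 but 6.00 and 10.7 CPM in cluster 6. Its primary epithelial level lay below the 19.6 CPM of the low-UMI barcodes of that library. With cells gated by marker UMIs in place of clusters, Slc7a11 was at 14.6 CPM in liver and 17.8 CPM in primary epithelial cells, a ratio of 0.82 (0.50 to 1.39), so its direction depended on how the cells were chosen, while Gsta4 and Gpx2 had ratios of 3.78 and 3.02. Gstm1 was at 187 and 126 CPM (1.49, or 1.07 in the shared clusters). Gclc was lower in liver epithelial cells, at 177 against 218 CPM (ratio 0.81, 0.76 to 0.87), and Txnrd1, Srxn1 and Gsr had ratios of 1.02, 0.97 and 1.08. These are cells that passed a CD45 sort, 1 library per site, and free RNA of Gsta4 and Gpx2 was also higher in the liver library (425 against 68.0 CPM and 36.7 against 6.18 CPM), so site and library cannot be told apart.

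In macrophage-like cells the site ratios were largest for Gsta4 (9.48), Nqo1 (7.63, from 37 and 3 UMIs) and Gpx2 (4.22), all below the low-UMI barcodes. Gsta4 also had ratios of 19.1 in neutrophils, 21.3 in dendritic cells and 36.9 in T cells. Its higher level in the liver library was thus not particular to epithelial cells. The macrophage ratio was 2.46 for Gclm (83.2 CPM in liver against 33.8 CPM in primary cells), 2.21 for Gstm1, 1.86 for Srxn1, 1.56 for Gclc, 1.55 for Txnrd1 and 1.51 for Gsr. Slc7a11 was lower in liver macrophages, at 33.7 against 49.5 CPM (ratio 0.68, 0.63 to 0.74). In neutrophils Slc7a11 was also lower in the liver library, at 167 against 409 CPM (ratio 0.41, 0.34 to 0.49), and Txnrd1 had a ratio of 0.59. In low-UMI barcodes Gclm was at 63.4 CPM in the liver library and 21.8 CPM in the primary library, and Slc7a11 at 21.98 and 19.6 CPM. The largest macrophage cluster differed between libraries, being cluster 0 with 1274 of 2926 liver cells and cluster 4 with 735 of 1486 primary cells.

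The liver tissue itself was represented by 10 hepatocyte-like cells in the liver library, with 26622 UMIs in all and Alb at 5672 CPM. They held 121 UMIs of Gstm1, or 4545 CPM (3771 to 5431), against 187 CPM in epithelial cells and 60.7 CPM in macrophages. Gclm was at 714 CPM (430 to 1115), Gclc at 488 CPM (260 to 835) and Gsta4 at 376 CPM (180 to 691), the last below the 425 CPM of the low-UMI barcodes. Gpx2, Srxn1 and Slc7a11 had 0 UMIs, which allows up to 139 CPM each. Bulk Gstm1 was 710.0 CPM in liver replicate 3, against 1316 and 1473 CPM in liver replicates 1 and 2, and the hepatocyte list summed to 70430 CPM there against 130145 and 132245 CPM. The hepatocyte part in the bulk difference was not tested.

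Of the pathway genes outside the 10, some were higher in epithelial-like and others in macrophage-like cells. In the liver library 52 of 96, and in the primary library 53 of 90, were higher in epithelial than in macrophage-like cells. These shares are little above the 51.0% and 50.2% of all genes, and nothing is read from them. A ratio above 2 was reached by 33 of the 96 and 32 of the 90, against 23.2% and 22.5% of all genes. Akr1b8, an aldo-keto reductase, was at 187 CPM in epithelial cells and 14.01 CPM in macrophages of the liver library, Gsto1 at 1541 and 192 CPM, Gsta1 at 307 and 13.6 CPM and Gss at 107 and 18.1 CPM. Hmox1, which macrophages use to break down heme, was at 33.2 CPM in epithelial cells and 804 CPM in macrophages of the liver library, and at 29.5 and 254 CPM in the primary library. Bach1 was at 20.9 and 104 CPM in the liver library and at 36.8 and 146 CPM in the primary library, Slc3a2, the heavy chain that pairs with Slc7a11, at 80.3 and 221 CPM and at 73.9 and 183 CPM, and Gpx3 at 2.74 and 49.9 CPM and at 0.94 and 35.6 CPM. Nfe2l2 was at 118 CPM in epithelial cells and 154 CPM in macrophages of the liver library, and at 106 and 195 CPM in the primary library.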

How the data were processed

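Bulk RNA-seq of liver and primary tumors and single-cell RNA-seq of CD45-sorted cells were used. The authors deposited raw read counts per gene symbol and FPKM for the 6 bulk libraries, per the file names and values, and UMI counts for 6794880 barcodes per single-cell library, per the matrix headers. The submitters' processing notes name bcl2fastq, Cell Ranger and mm10 without roles. The bulk aligner and counter are not given in the sources used here. The kit version in the labels does not match the number of barcodes in the matrices. The deposited FPKM are scaled by a size factor per library and a constant per gene, as tested on the values.

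Counts were tested in edgeR 4.0.16 (R 4.3.3; filterByExpr, TMM, robust quasi-likelihood fit on group, two-sided, Benjamini-Hochberg at 0.05). Alternatives were DESeq2 1.42.0, limma 3.58.1 on log2(FPKM + 1) and log2(FPKM + 0.1), other filters and scalings, a replicate block and each library left out. On simulated counts of 16185 genes, 17 of 100 genes changed by 1 and 93 of 100 changed by 2 on the log2 scale were called, with 9 unchanged genes. Cells needed 1500 UMIs, 200 genes and at most 10% mitochondrial UMIs. This limit removed 39.1% of liver and 58.5% of primary barcodes that passed the other limits. Scrublet removed 43 liver and 5 primary barcodes. Cells of both libraries were clustered together in scanpy 1.11.5 on 2000 variable genes and 30 components without the 10 genes or other pathway genes, and a cluster was named from at least 3 markers over 2-fold higher. Intervals are exact at 95% and cover counting error only.

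The members and lists were chosen with earlier results of these data known. Named genes are the 10, up to 3 called genes by p and the 2 most abundant of each list, and a fixed set (Nfe2l2, Keap1, Bach1, Hmox1, Slc3a2, Gss, Gpx1, Gpx3, Gpx4, Gstp1, Alb, Epcam, Krt19 and Ptprc). Akr1b8 and Gsta1 in the cell classes were named after their values were seen. The list gene Gsta13 is not in the bulk table.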

Additional observations from a re-analysis of the deposited data

How the results depend on the processing

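Over 15 bulk alternatives, all refits of the libraries used to choose the genes, the Gpx2 log2 change kept its direction and its call. Leaving out 1 library gave 1810 to 3346 genes called higher and 134 to 1468 called lower in liver tumors, 0 to 3 members called higher and 1 to 2 lower, and 23 to 46 pathway genes called higher and 2 to 12 lower. The lowest counts came without liver replicate 2 (1810 and 134 genes, 2 pathway genes lower). Calls lower were 414 without liver replicate 1 and 606 without primary replicate 3. Without primary replicate 2, 3 members were called higher. Nqo1 ranged from -1.78 to 0.90 and Hmox1 from -0.41 to 0.67 over the libraries left out, positive without primary replicate 2. Gclc changed sign in 5 of 15 alternatives (-0.28 to 1.28), and without primary replicate 1, 2 members and 12 pathway genes were called lower. Scaling to epithelial reads gave 6449 genes higher and 31 lower, 6 members higher, 69 pathway genes higher and 1 lower, with Slc7a11 at 1.19, Hmox1 at 1.37 and Maff at 0.15. Totals without the hepatocyte list gave 3167 genes, 2 members and 23 pathway genes lower, so that 41.8% of calls were higher, against 72.7% in the TMM fit. DESeq2 called 1 member higher and 10 pathway genes lower. log2(FPKM + 1) called 3 pathway genes lower, also with no filter, where 415 genes were lower and 84% of calls were higher, and no filter on low counts gave 2 members lower. Whether equal replicate numbers mark paired libraries is not given, and correlations between 3 and 3 libraries cannot settle it. Same-number correlations were -0.20, 0.28 and 0.10, and only number 2 correlated best with its own. The replicate block gave 2703 genes higher and 873 lower, 2 members higher, and 34 pathway genes higher and 5 lower. The cause of these changes was not tested.

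In single cells the counts of 8 and 8 members with more CPM in epithelial cells, and of 8 and 7 with a higher thinned share (liver and primary library), stayed within 1.5 times under all alternatives run. In the liver library Srxn1 turned to 0.34 (log2 epithelial over macrophage) with a marker gate in place of clusters, which left 43 liver macrophages and no Nqo1 UMI among them, and Slc7a11 to 0.50 at a minimum of 3000 UMIs and 0.15 at a mitochondrial limit of 20%. Epithelial cluster 7 had a low median UMI count in the primary library. Like clusters 6, 9 and 11, it had no epithelial marker among its leading genes. Without cluster 7, an alternative chosen after seeing the data, Gsta4 had ratios of 23.9 and 67.8 and a liver over primary ratio of 3.34. Depth limits Nqo1, with 7 UMIs in both classes of the primary library, and the bulk comparison of 3 against 3 libraries.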
